A study of Mus musculus with 8 samples.

Results

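The Egr, Nr4a and Ier early-response genes were followed in mouse multipotent progenitors (MPPs) from bone marrow. The members were 9 named genes, namely Egr1, Egr2, Egr3, Nr4a1, Nr4a2, Nr4a3, Ier2, Ier3 and Ier5, out of 37980 gene rows, and each was found by matching its Ensembl identifier to its symbol. Sorted MPPs were Lin-, CD48-, c-kit+, Sca1+, CD135+ and CD150- cells, 1000 for each library. NA MPPs came from NA LSL/+; Vav-Cre mice on a C57BL/6 background, in which Cre driven by the Vav promoter switches on the NUP98-HOXA10hd fusion from the Rosa26 locus in blood cells. WT MPPs came from age-matched C57BL/6 mice that carried the CD45.2 allele, and the ages were not given. The WT mice were not described as carrying Vav-Cre, so the fusion and the Cre cannot be told apart. There were 4 NA libraries (NA1 to NA4) and 4 WT libraries (WT1 to WT4). The labels do not say whether the libraries of a group came from separate mice, so p-values measure the spread between these libraries, which may be technical.

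Early-response genes are transcribed within minutes of a signal from pre-bound transcription factors, without new protein synthesis, and their short-lived mRNAs then fall again. Signals reach them mainly through the ERK kinases, which act on serum response factor (SRF) and its ternary complex partners at CArG boxes, and through CREB at cAMP response elements. Handling and enzymatic digestion of tissue are also known to switch these genes on. The EGR proteins are zinc finger transcription factors, the NR4A proteins are orphan nuclear receptors that act without a known ligand, and the IER proteins act mainly through other proteins. EGR1 is known for holding haematopoietic stem cells in quiescence and in the marrow niche, and loss of NR4A1 together with NR4A3 leads to myeloid leukaemia in mice.

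The libraries held between 3876907 and 4916988 estimated reads, with 14080 to 15086 genes detected. Depth was estimated from the smallest step between values, and floors and intervals from it cover counting error only. The 6 genes listed as MPP markers were Kit, Ly6a, Flt3, Cd34, Cd48 and Slamf1. They summed to 7365 to 7690 normalised counts in NA and 7550 to 8005 in WT libraries. None was at 0 throughout, although Cd48 and Slamf1 code for CD48 and CD150, which the sort selected against. By limma 2 of the 6, Ly6a and Cd48, were called lower in NA MPPs. Ly6a was at 1221 to 1408 in NA against 1482 to 1614 in WT libraries, and Cd48 at 12.2 to 22.4 against 34.2 to 83.8. Kit, Flt3 and Cd34 were detected in every library. Among markers of other cells, Cd3e, Cd3g, Trac and Cd8a of T cells, Elane of granulocytes and Ms4a1 of B cells were at 0 in all 8 libraries, as were Mcpt8, Prss34 and Fcer1a of mast cells and basophils. Other markers were present, with Lyz2 of monocytes at 1652 to 2019 normalised counts over the 8 libraries, Prtn3 of granulocytes at 1371 to 2291, Cd79b of B cells at 87.4 to 256 and Nkg7 of NK cells at 115 to 150. The 5 monocyte and macrophage markers summed to 1702 to 1794 in NA against 1787 to 2084 in WT libraries, the 5 megakaryocyte markers to 168 to 232 against 170 to 236, the 5 B cell markers to 101 to 228 against 181 to 263, the 6 T and NK cell markers to 146 to 161 against 120 to 145, and the 5 mast cell and basophil markers to 7.39 to 15.9 against 1.14 to 19.5. The 6 erythroid markers summed to 34.3 to 62 in NA against 142 to 292 in WT libraries, the 6 granulocyte markers to 1383 to 1696 against 1744 to 2545, and the 6 stem cell markers to 5306 to 6102 against 3517 to 3578. Hlf made up most of the stem cell sum, at a mean of 4185 in NA and 2198 in WT libraries, 2 of these 6 markers (Hlf and Procr) were called higher by limma, and the log2 fold changes of Mecom, Fgd5 and Vwf were -0.05, -0.04 and -0.36. Their part in the results on the early-response genes was not tested. Hoxa10, part of which is in the fusion, was at 298 to 371 in NA and 130 to 149 in WT libraries. Xist was at 0.94 to 2.8 in NA and 869 to 1285 in WT libraries, and the Y-linked Ddx3y at 281 to 668 and 0 to 0.888, so genotype and the sex of the animals cannot be told apart here. NA4 lay between the other libraries of its group for 67.7% of tested genes and WT4 for 75.2%, against 38.1% to 50.2% for the other 6 libraries, so counts of called genes are also given without these libraries. Whether NA4 and WT4 are independent of the other libraries of their groups was not tested, and the SDs and p-values with n = 4 treat them as separate. Without both, called genes fell from 2053 to 515.

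In GRCm38, the build named as mm10 in the submitters' processing notes, no member overlaps another annotated gene. Egr2 (ENSMUSG00000037868) lies at chr10:67535475-67542188 on the plus strand and Egr3 (ENSMUSG00000033730) at chr14:70077203-70082614 on the plus strand. Nr4a1 (ENSMUSG00000023034) lies at chr15:101254269-101274795 on the plus strand, Nr4a2 (ENSMUSG00000026826) at chr2:57106830-57124003 on the minus strand and Nr4a3 (ENSMUSG00000028341) at chr4:48045153-48086447 on the plus strand. Ier2 (ENSMUSG00000053560) is a gene of 1 exon at chr8:84661331-84662852 on the minus strand, Ier3 (ENSMUSG00000003541) has 2 exons at chr17:35821684-35822923 on the plus strand, and Ier5 (ENSMUSG00000056708) has 1 exon at chr1:155096361-155099636 on the minus strand. The Nr4a genes have up to 8 exons in a transcript. RefSeq promoter windows were matched for 6 of the 9 members, Egr2, Nr4a1, Nr4a2, Nr4a3, Ier3 and Ier5.

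The 250 bases before an annotated start are shown for 4 members, because they differ in the elements through which early-response signals are known to act. The sequences are from RefSeq for GRCm38.p6, read 5′ to 3′ on the strand of the gene. Capitals mark the cAMP response element half-site, TGACG or its complement CGTCA on the other strand, and the CArG box.
Nr4a1, chr15:101266596-101266845, plus strand, an internal start: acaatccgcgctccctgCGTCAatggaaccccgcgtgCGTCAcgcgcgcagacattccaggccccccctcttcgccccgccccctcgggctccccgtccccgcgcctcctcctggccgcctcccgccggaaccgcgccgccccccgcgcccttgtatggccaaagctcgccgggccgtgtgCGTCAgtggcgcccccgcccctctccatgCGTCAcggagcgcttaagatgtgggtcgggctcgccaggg
Nr4a2, chr2:57124004-57124253, minus strand: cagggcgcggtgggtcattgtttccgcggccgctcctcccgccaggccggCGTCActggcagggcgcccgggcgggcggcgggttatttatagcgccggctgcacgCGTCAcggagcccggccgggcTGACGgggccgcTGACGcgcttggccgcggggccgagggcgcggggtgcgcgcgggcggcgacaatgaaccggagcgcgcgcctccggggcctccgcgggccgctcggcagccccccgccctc
Egr2, chr10:67537619-67537868, plus strand, 1 of its 5 windows: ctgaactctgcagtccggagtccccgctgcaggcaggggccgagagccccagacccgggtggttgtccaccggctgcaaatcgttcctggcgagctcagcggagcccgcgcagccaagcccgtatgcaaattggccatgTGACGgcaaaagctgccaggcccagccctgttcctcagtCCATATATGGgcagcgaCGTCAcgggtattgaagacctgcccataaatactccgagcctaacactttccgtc
Ier5, chr1:155099637-155099886, minus strand: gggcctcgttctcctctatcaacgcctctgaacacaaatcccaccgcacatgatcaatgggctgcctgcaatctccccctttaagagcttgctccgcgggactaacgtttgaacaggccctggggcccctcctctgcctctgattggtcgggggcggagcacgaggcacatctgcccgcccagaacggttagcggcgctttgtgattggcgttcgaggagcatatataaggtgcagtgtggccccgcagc

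The half-site was present 4 times in the window of Nr4a1, of which the copies nearest the start began 69 and 40 bases before it. Nr4a2 held 4 half-sites, at 200, 144, 123 and 111 bases before the start, and Nr4a3 also held 4. Egr2 held 2 half-sites, at 111 and 55 bases, on either side of a CArG box at 72 bases. Of the 5 windows of Egr2, 3 that overlap each other hold these elements, the one at chr10:67537316-67537565 holds a CArG box and no half-site, and the one at the most upstream start, chr10:67535249-67535498, holds neither. Neither Ier3 nor Ier5 held either element. Over 32851 promoter windows of the same length, 17.8% held at least 1 half-site and 1.47% held a CArG box, both strands counted, shares that are per window and so do not allow for the several windows of Egr2. The binding site of EGR proteins, GCGTGGGCG, was in 0.54% of windows and in none of the windows of the members. A match describes letters in this window and is no evidence of binding.

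The table held values for all 9 members in the 8 libraries, as RSEM counts divided by a size factor, called normalised counts here. Egr1 (ENSMUSG00000038418, chr18:34859823-34864984, plus strand) had the highest normalised counts of the members in NA MPPs, at 4718, 5424, 6261 and 5275 in NA1 to NA4 against 534, 1145, 1134 and 803 in WT1 to WT4. The lowest NA library was above the highest WT library, and WT1 was the lowest of the 8. The mean was 5419 ± 638 for NA and 904 ± 293 for WT libraries (SD, n = 4 each), 5.99-fold higher. The log2 fold change was 2.64 (SE 0.189, 95% interval 2.24 to 3.04, limma adjusted p = 7e-07), which ranked 41 of 11451 tested genes from the largest rise. In sorted bulk cells, more cells that express a gene and more RNA in each cell cannot be told apart. Limma was run on log2(normalised count + 1) of the genes that reached 10 normalised counts in 4 or more libraries, adjusted by Benjamini-Hochberg over all of them, and 17.9% of tested genes were called in either direction, and 10.1% of tested genes were called higher in NA MPPs. The study also ran real-time PCR in NA and WT MPPs on selected genes, as a check of its sequencing, and Egr1 was among them. The genes were picked from libraries that include these, so the direction of Egr1 here is not independent evidence for that PCR. The PCR values are not given here.

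Egr2, a factor that binds the same DNA site as EGR1 and restrains T cell activation, was far lower. Its normalised counts were 11.2, 18.8, 52.6 and 21.3 in NA1 to NA4 and 0, 11.3, 4.55 and 4.44 in WT1 to WT4. These correspond to 12, 20, 57 and 18 estimated reads in NA libraries and 0, 10, 4 and 5 in WT libraries. NA1 and WT2 met at the edge, so the groups overlapped. The log2 fold change was 2.40 (SE 0.731, 95% interval 0.83 to 3.96, limma adjusted p = 0.0355). Egr2 entered the test through all NA libraries and WT2 alone, so a rise was in part a condition of entry. The call was lost in 9 of 18 alternatives, and the adjusted p lay between 0.0185 and 0.146 over them. Without NA2, NA3, NA4, WT1, WT3 or WT4 it was 0.0659, 0.0975, 0.0931, 0.069, 0.0508 and 0.0623 by limma, in that order.

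Egr3, the relative that shares targets with Egr2, was listed at 0 in all 8 libraries and was not tested. A count of 0 allows up to 3 reads, which is 2.66 to 3.54 normalised counts here. None of the 74 ribosomal protein genes was listed at 0. That check covers only genes of high level, so it cannot tell whether the 0 of Egr3 reflects absent RNA or reads that were not assigned to it. Egr4, the other EGR gene, was also too low for the test, at 4.67, 7.52, 3.69 and 4.72 in NA1 to NA4 and at 0 in the 4 WT libraries. Egr1, Egr2 and Egr3 together ran at 4729 to 6313 normalised counts in NA and 534 to 1156 in WT libraries, a sum made up almost wholly of Egr1.

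**Figure D1:**
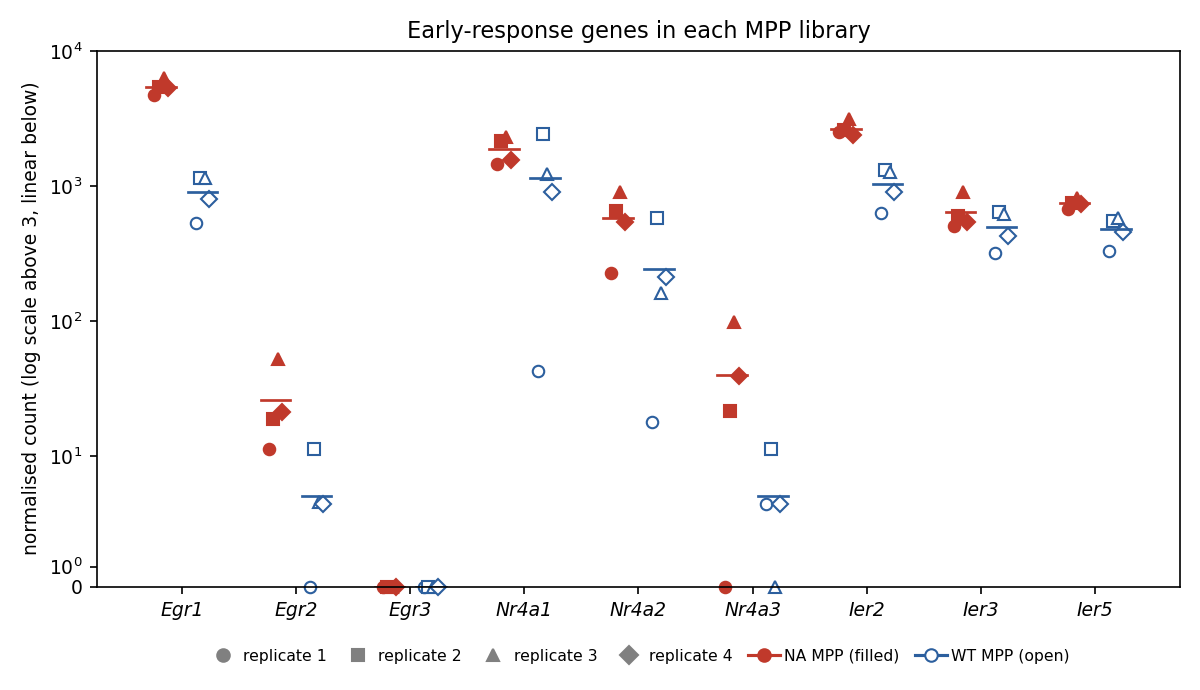
Normalised counts of the 9 genes in each library, on an axis that is logarithmic above 3 and linear below, with filled symbols for NA MPP and open symbols for WT MPP, a shape for each replicate number and a line at each group mean. Egr1 and Ier2 lay apart between the groups, Egr3 was at 0 throughout, and WT1 lay far below the other WT libraries for Nr4a1 and Nr4a2, at 42.6 and 17.8.

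Nr4a1, the receptor also known as Nur77 and a common readout of antigen receptor signalling, was at 1447, 2159, 2297 and 1548 in NA1 to NA4. In WT1 to WT4 it was at 42.6, 2411, 1226 and 898. WT2 was above all NA libraries while WT1 was far below every other library, a 56.6-fold span within the WT group. The mean was 1863 ± 428 for NA and 1145 ± 981 for WT libraries (SD, n = 4 each). The log2 fold change was 1.65 (SE 0.841, 95% interval -0.15 to 3.45, limma adjusted p = 0.191), so the test did not pass and the interval reaches from no difference to a large rise. Without WT1 the fold change was 0.40, and without WT2 it was 2.33 (limma adjusted p = 0.0651). Over the 19 alternatives the call was never made.

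Nr4a2, known for the development of dopaminergic neurons, was at 228, 653, 897 and 543 in NA1 to NA4 and at 17.8, 573, 161 and 212 in WT1 to WT4. WT2 lay above NA1 and NA4 and WT1 was again the lowest, so the groups overlapped. Means were 580 ± 278 and 241 ± 236 (SD, n = 4 each), and the log2 fold change was 1.91 (SE 0.734, 95% interval 0.33 to 3.48, limma adjusted p = 0.0867). Without WT2 the fold change was 2.59 and passed the test (limma adjusted p = 0.0185), and without WT1 it was 0.94. With a depth class as covariate it passed as well, at 2.24 (limma adjusted p = 0.0488). The adjusted p lay between 0.00991 and 0.243 over the 19 alternatives.

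Nr4a3, which acts with Nr4a1 to restrain myeloid leukaemia, was the lowest receptor. Its values were 0, 21.6, 98.8 and 39 in NA1 to NA4 and 4.44, 11.3, 0 and 4.44 in WT1 to WT4. NA1 was at 0 and NA3 was the highest, so the NA group spanned the WT group. The log2 fold change was 1.99 (SE 1.16, 95% interval -0.50 to 4.48, limma adjusted p = 0.253). It entered the test through 3 NA libraries and WT2. Without NA1 it was 3.36 and passed the test (limma adjusted p = 0.0116), and without WT3 it was 1.28.

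The 3 receptor genes together summed to 1675, 2834, 3293 and 2131 normalised counts in NA1 to NA4 and to 64.8, 2995, 1387 and 1115 in WT1 to WT4. The WT range held the NA range within it but for NA3. Nr4a2 ran at 0.157 to 0.391 of the normalised counts of Nr4a1 in NA and at 0.131 to 0.417 in WT libraries, so the ratio between them did not separate the groups. The within-group spread was larger for Nr4a1 than for 99.7% of tested genes, for Nr4a2 than for 99.4% and for Nr4a3 than for 99.9%. The same share was 73.8% for Egr1 and 98.3% for Egr2.

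**Figure D2:**
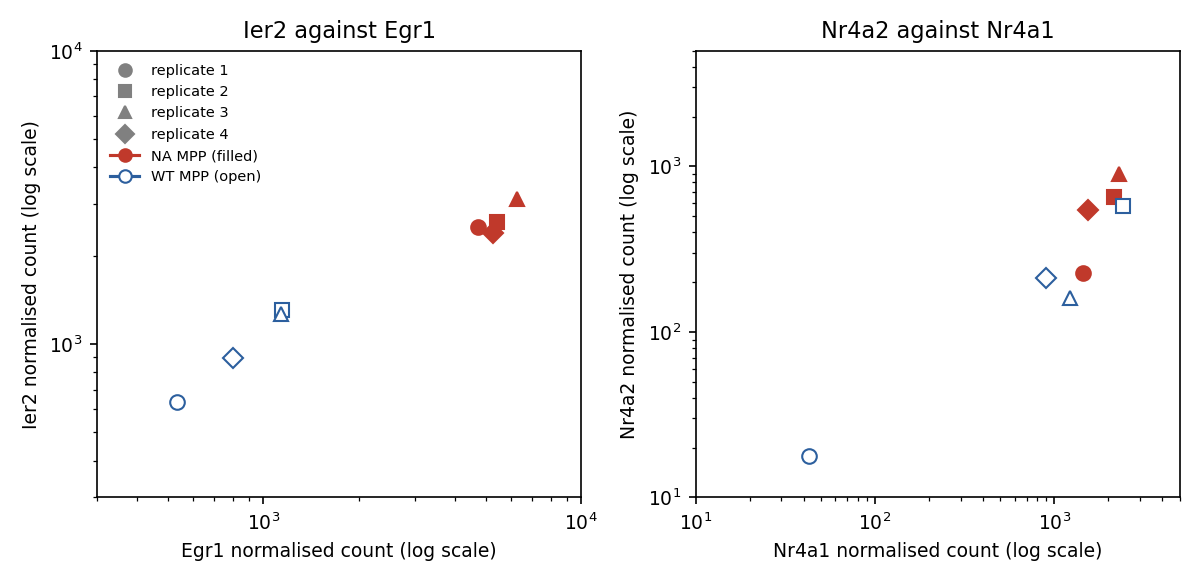
Ier2 against Egr1 and Nr4a2 against Nr4a1 in each library, on logarithmic axes of normalised counts, with filled symbols for NA and open symbols for WT libraries and a shape for each replicate number. The groups lay apart for the first pair, whereas WT2 lay among the NA libraries for the second.

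Ier2, a nuclear protein of the early serum response, was at 2516, 2598, 3113 and 2395 in NA1 to NA4 and at 633, 1305, 1266 and 899 in WT1 to WT4. Every NA library was above every WT library, and WT1 was the lowest. The means were 2656 ± 316 and 1026 ± 319 (SD, n = 4 each), 2.59-fold higher in NA MPPs, and the log2 fold change was 1.42 (SE 0.181, 95% interval 1.04 to 1.81, limma adjusted p = 0.000144). It ranked 240 of 11451 tested genes. Ier2 was at 0.533, 0.479, 0.497 and 0.454 of the normalised counts of Egr1 in NA1 to NA4 and at 1.19, 1.14, 1.12 and 1.12 in WT1 to WT4. This ratio was chosen after its values were seen, and it was not tested.

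Ier5, which binds PP2A and the heat shock factor HSF1, was at 672, 745, 815 and 736 in NA1 to NA4 and at 332, 552, 577 and 454 in WT1 to WT4. No NA library fell below a WT library. The means were 742 ± 58.6 and 479 ± 111 (SD, n = 4 each). The difference on the log2 scale was 0.66 (SE 0.149, 95% interval 0.34 to 0.98, limma adjusted p = 0.00786). The call was lost in 2 of 19 alternatives, without the fourth library of both groups (limma adjusted p = 0.068) and without the variance trend (limma adjusted p = 0.05).

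Ier3, a regulator of ERK signalling and cell survival, was at 502, 598, 905 and 539 in NA1 to NA4 and at 318, 636, 616 and 426 in WT1 to WT4. NA1 to NA4 and WT1 to WT4 overlapped, with WT2 above 3 NA libraries. Means were 636 ± 184 and 499 ± 154 (SD, n = 4 each). The difference on the log2 scale was 0.36 (SE 0.215, 95% interval -0.09 to 0.82, limma adjusted p = 0.256), and the call was made in none of the 19 alternatives. The 3 Ier genes summed to 3670 to 4833 normalised counts in NA and 1283 to 2493 in WT libraries.

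Of the 9 members, 8 could be tested, 4 were called higher (Egr1, Egr2, Ier2 and Ier5) and 0 were called lower by limma (0 also at an unadjusted p under 0.05), in a comparison in which 10.1% of tested genes were higher and 7.87% lower. Egr1, Ier2 and Ier5 had no overlap between the groups, where 11.5% of tested genes had every NA value above every WT value. The median log2 fold change of the 8 was 1.8, against -0.011 over all tested genes. These counts describe genes of which some entered through the NA libraries, so they are no support for a rise of the family. Called members numbered 2 of 7 tested without the fourth library of both groups, where 370 of 11117 tested genes were called higher.

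**Figure D3:**
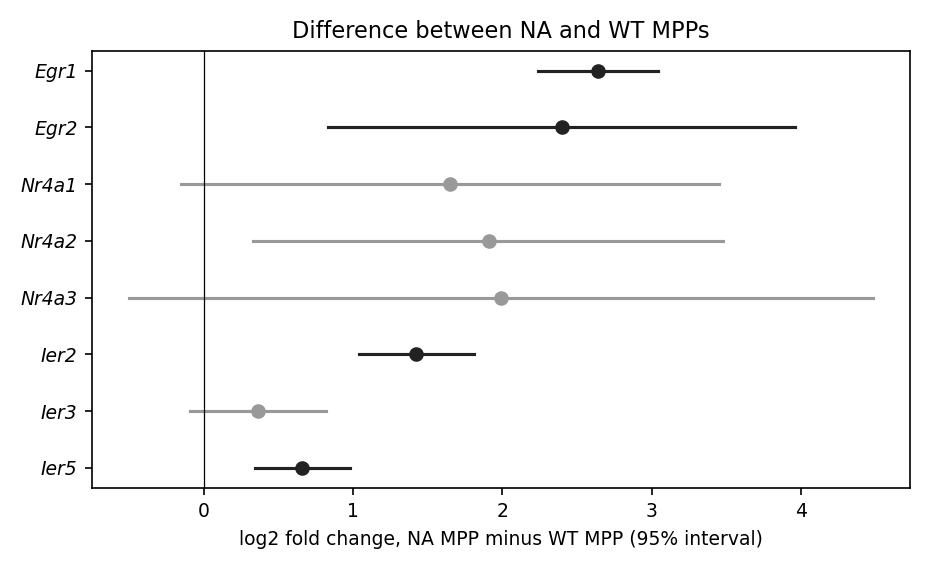
Log2 fold change of the 8 tested genes between NA and WT MPPs with 95% intervals, where black marks genes past the adjusted threshold and grey the rest. Egr1 at 2.64 and Ier2 at 1.42 had narrow intervals, and those of Nr4a1, Nr4a3 and Ier3 crossed 0.

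Levels were also divided by the length of the exons, so that genes could be compared on 1 scale of normalised counts per kilobase. In NA MPPs Ier2 stood highest, at 1745 ± 208, followed by Egr1 at 1209 ± 142 (SD, n = 4), and their ranges did not overlap. Ier3 at 562 and Nr4a1 at 531 overlapped, as did Ier5 at 227 and Nr4a2 at 143, and Egr2 at 7.64 and Nr4a3 at 6.66. In WT MPPs Ier2 was at 674 ± 210, Ier3 at 441 ± 136, Nr4a1 at 326 ± 279, Egr1 at 202 ± 65.4, Ier5 at 146 ± 34 and Nr4a2 at 59.3 ± 58.2 (SD, n = 4 each), and each of these overlapped the next. Egr2 at 1.49 and Nr4a3 at 0.844 normalised counts per kilobase ran below all of these. By the means, Egr1 was thus below Ier3 and Nr4a1 in the WT order and above both in the NA order. In WT libraries Egr1 ranged from 119 to 255 per kilobase, below Ier3 at 281 to 563 but within the range of Nr4a1, 12.1 to 687. Egr1 made up 43.4% to 47.5% of the summed normalised counts of the members in NA libraries and 17.2% to 28.4% in WT libraries.

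The libraries within a group were ordered alike across the members. WT1 was the lowest WT library for 7 of the 8 tested members and WT2 the highest for 7, and NA3 was the highest NA library for all 8 and NA1 the lowest for 7. Over all tested genes WT1 was lowest for 27.5%, WT2 highest for 32.2%, NA3 highest for 30.5% and NA1 lowest for 29.1%. Among 41 tested genes of the other immediate early list these shares were 82.9%, 63.4%, 70.7% and 68.3%. NA3 held the lowest mitochondrial share of its group, 6.91%, against 9.27% to 9.47% in the other NA libraries, and WT libraries held 7.22% to 8.12%. WT1 and WT4 held 4779628 and 4890087 estimated reads, and WT2 and WT3 held 3960939 and 3876907. For Egr1, Ier2, Ier3, Ier5 and Nr4a1 the deeper WT libraries were the lower ones, whereas for Nr4a2 and Nr4a3 WT4 was above WT3. NA4 had the fewest reads of its group, 3887856, and was highest for 0 of the 8 tested members. The part of these library differences in the results was not tested.

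**Figure D4:**
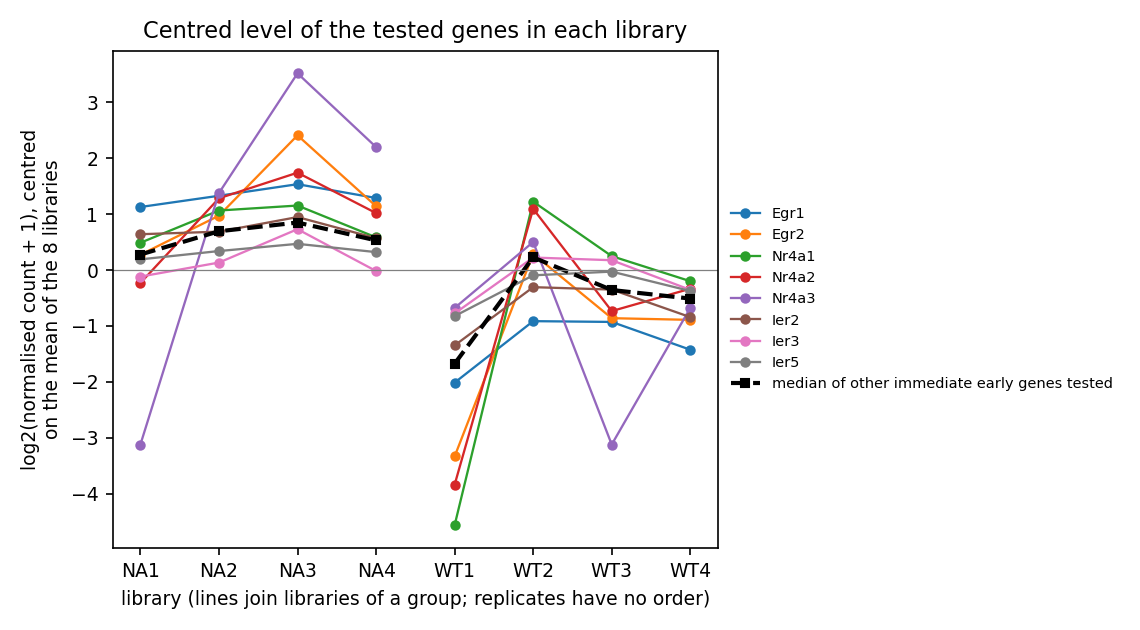
Centred log2(normalised count + 1) of the tested members in each library, with a coloured line for each gene. The dashed black line is the median of the 41 tested genes of the other immediate early list. WT1 and NA1 formed low points and WT2 and NA3 high points within their groups for most genes.

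Egr1 and Ier2 kept their call whichever library was left out, with log2 fold changes of 2.41 to 2.79 and 1.21 to 1.63 over the 19 alternatives (limma adjusted p at most 0.000933 and 0.00927). Called members numbered between 3 and 5 as single libraries were left out, and every call was higher in NA MPPs.

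**Figure D5:**
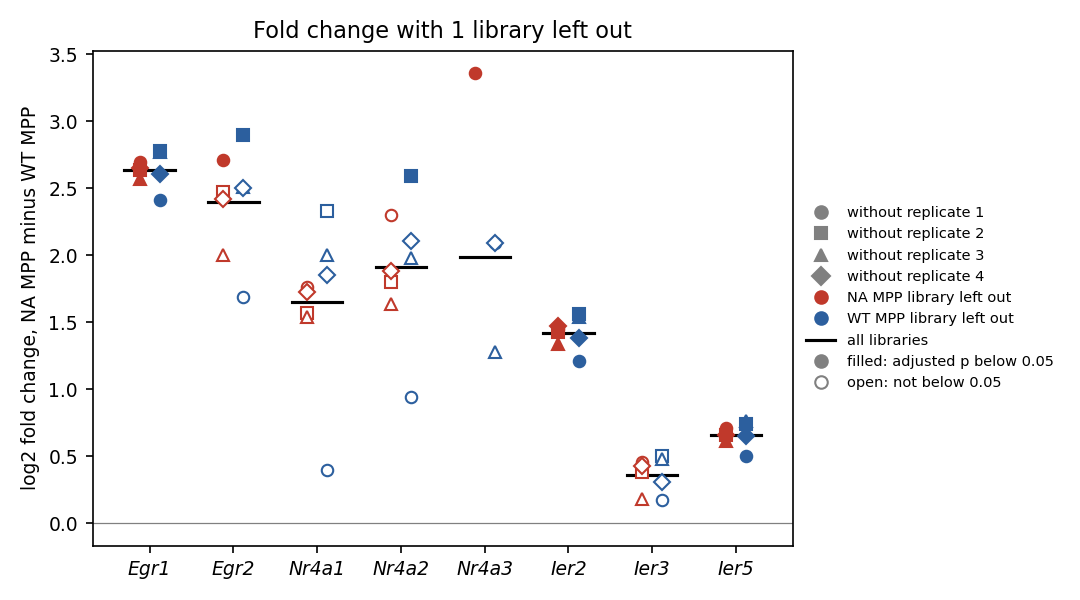
Log2 fold change of each tested gene with each library left out in turn, by group colour and replicate shape, filled where the adjusted p was below 0.05 and open otherwise, with a line for the fit on all libraries. Points for Egr1 and Ier2 stayed filled, and those of Nr4a1 ranged from 0.40 to 2.33 and were never filled.

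Other immediate early genes were read from a list of 47, of which 41 were tested. By limma 30 of these were called higher and 0 lower (0 lower also at an unadjusted p under 0.05), which is 73.2% of the list where 10.1% of tested genes were called higher, with a median log2 fold change of 1.2. Every NA value was above every WT value for 20 of the 41, or 48.8%, against 11.5% of tested genes. Fos, the partner of JUN in the AP-1 factor, rose most among the called genes, from 804, 3128, 3154 and 1904 in WT1 to WT4 to 20422, 20355, 21297 and 19676 in NA1 to NA4, or by 3.37 on the log2 scale (limma adjusted p = 7.46e-06). Srf, itself on the list, was at 165 ± 18 for NA and 200 ± 12.9 for WT libraries (SD, n = 4 each), and its difference of -0.28 on the log2 scale was not called (limma adjusted p = 0.167). Without the fourth library of both groups 13 of the 41 were called, without the variance trend 14, and with no filter on low values 15 of the 47. Over all tested genes, 370 of 11117, 825 of 11451 and 870 of 17710 were called higher in these settings, in that order. The main fit called 1152 of 11451 higher.

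The factors that carry the signals were read next, against the same shares over all tested genes, 10.1% called higher and 7.87% called lower. None of the 6 genes of SRF and its ternary complex partners (Srf, Elk1, Elk3, Elk4, Mrtfa and Mrtfb) was called by limma, and 0 had an unadjusted p under 0.05, with a median log2 fold change of -0.03. Of 8 genes of CREB family factors and their coactivators 3 were higher, namely Creb1 at 0.31 (limma adjusted p = 0.0378), Atf1 at 0.48 (limma adjusted p = 0.0129) and the coactivator Crebbp at 1.55 (limma adjusted p = 0.0011). Crtc1 was lower, by -0.55 (limma adjusted p = 0.0238), and Crem, Crtc2, Crtc3 and Ep300 were not called. The call of Crebbp held in all 19 alternatives. That of Creb1 was lost in 12, among them without NA1, NA2, NA4, WT1, WT2 or WT4 (limma adjusted p up to 0.316), that of Crtc1 in 5, among them without NA4, WT1 or WT4 (up to 0.171), and that of Atf1 in 3, among them without NA4 (up to 0.116). Of 16 ERK cascade genes the kinase Rps6ka5, which phosphorylates CREB and histone H3, was higher at 1.45 (limma adjusted p = 0.0027), while Araf at -0.43 and Rps6ka1 at -0.46 were lower (limma adjusted p = 0.0135 and 0.0277), and 13 were not called. The call of Rps6ka5 held in all 19 alternatives. That of Rps6ka1 was lost in 10, among them without NA2, NA4, WT2, WT3 or WT4 (limma adjusted p up to 0.182), and that of Araf, which was named after its values were seen, in 1, without the fourth library of both groups (0.0737).

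The next lists were read against the same shares over all tested genes, 10.1% called higher and 7.87% called lower. MEF2 factors and class IIa deacetylases are known to act at the Nr4a1 promoter. Mef2c was higher by 0.49 on the log2 scale (limma adjusted p = 0.00222) and Hdac4 by 2.09 (limma adjusted p = 0.00382), while the other 5 tested of the 8 listed (Mef2a, Mef2d, Hdac5, Hdac7 and Hdac9) were not called. The call of Hdac4 was lost without the fourth library of both groups (limma adjusted p = 0.0527). Both corepressors that bind EGR proteins were tested. Nab1 was at 626, 806, 716 and 885 in NA1 to NA4 and 558, 588, 491 and 576 in WT1 to WT4 and rose (log2 fold change 0.45, limma adjusted p = 0.0157), and Nab2 was at 58.8, 39.5, 75.7 and 41.3 against 68.4, 129, 97.9 and 83.5 and fell (log2 fold change -0.82, limma adjusted p = 0.0466). The call of Nab2 was lost in 11 of 19 alternatives, among them without NA2, NA4, WT2, WT3 or WT4 (limma adjusted p up to 0.231), and that of Nab1 in 3, among them without NA4 (up to 0.13). Of the dimer partners of NR4A receptors, Rxra and Rxrb were not called by limma (0 at an unadjusted p under 0.05), and Rxrg was listed at 0 in all libraries. Among the partners of IER proteins, Mcl1 rose by 0.97 on the log2 scale (limma adjusted p = 0.00043) and Ppp2r5c by 0.31 (limma adjusted p = 0.0454), Ppp2r1a fell by 0.38 (limma adjusted p = 0.00701), and Ppp2ca, Ppp2cb, Ppp2r2a and Hsf1 were not called. The call of Ppp2r5c was lost in 12 of 19 alternatives, among them without NA2, NA4 or any 1 of the WT libraries (limma adjusted p up to 0.266), and that of Ppp2r1a without the fourth library of both groups (0.085).

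Heat shock genes, which the same handling of tissue can switch on, were at 21555 to 22713 summed normalised counts in NA and 20831 to 23807 in WT libraries. Hsp90ab1 was the largest part of these sums, at a mean of 11452 in NA and 11900 in WT libraries. Hspa1a, Hspa1b and Hspb1 reached at most 2.26, 3.55 and 3.42 in any library and were not tested. Of 8 tested of 11 listed, Dnajb1 (0.45, limma adjusted p = 0.0318) and Dnaja1 (0.25, limma adjusted p = 0.0486) were higher, Hspe1 was lower (-0.40, limma adjusted p = 0.0145) and 5 were not called. Over all tested genes 10.1% were called higher and 7.87% lower. Dnaja1 was named after its values were seen. Its call was lost in 12 of 19 alternatives, among them without NA1, NA2, NA4, WT1, WT3 or WT4 (limma adjusted p up to 0.44), that of Dnajb1 in 8, among them without any 1 of NA2, NA3, NA4, WT1 or WT4 (up to 0.122), and that of Hspe1 in 2, without WT4 (0.0622) and without the fourth library of both groups (0.155). The part of tissue handling in the early-response values was not tested.

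Likeness was measured as the root mean square difference of centred log2(normalised count + 1) values over the 8 libraries, among 8864 genes that averaged 50 or more normalised counts, and it is given as a description with no test. The nearest gene was Ppp4c for Egr1 (distance 0.236), at 610, 575, 688 and 674 in NA1 to NA4 and 79.9, 169, 101 and 92.3 in WT1 to WT4. It was Sik1 for Egr2 (0.402), Trp53inp2 for Nr4a1 (0.377), Klf4 for Nr4a2 (0.231) and Tesk2 for Nr4a3 (1.4). Krt7 was nearest to Ier2 (0.153), Osgin1 to Ier3 (0.114) and Zfp36 to Ier5 (0.079). The genes nearest to the mean profile of the tested members were Cebpb (0.208), Cd69 (0.245), Btg2 (0.253), Gem (0.265) and Sik1 (0.316). Among the members themselves Ier3 and Ier5 were closest (0.241), then Ier2 and Ier5 (0.396) and Egr2 and Nr4a2 (0.506). The distance is not scaled by spread, so genes that vary little over the libraries lie close whatever their pattern. Ier3 and Ier5 had the smallest log2 fold changes of the tested members, 0.36 and 0.66.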

How the data were processed

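RNA of 8 MPP libraries, 4 NA and 4 WT, was measured by sequencing of amplified cDNA. Per the labels, the authors used bcl2fastq, RSEM and DESeq2 with mm10, and versions were not given in the sources used here. The name of the deposited table speaks of raw counts. The authors had, however, already scaled each library by a size factor, so the unit is a normalised signal. Whole multiples of a smallest step (0.888 to 1.18, tolerance 0.02) made up 98.1% to 98.6% of a library, and fractions of a read also occurred, so no count test was run. Symbols and exon lengths were from GENCODE M21, which named 93.8% of rows above 0, and promoter sequences were from RefSeq.

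NA was compared with WT by limma (version 3.58.1, R 4.3.3) with a mean-variance trend and no covariate, after taking log2(normalised count + 1). Genes needed at least 10 normalised counts in at least 4 libraries, and the Benjamini-Hochberg adjustment ran over 11451 genes, with a threshold of 0.05. A fold change on this scale understates changes of low genes. On simulated data for NA against WT MPPs with 11451 genes and 200 changed genes, 64% of those changed by 1 on the log2 scale and 87% of those changed by 2 were recovered, and 6.21% of calls were false. The simulated libraries were drawn independently and held far fewer changed genes than the 2053 called here, so these rates may not carry over. The members, lists and tests were chosen with earlier results of these data known. Named genes were the members, the largest called rise and fall of each list, all genes of lists of 8 or fewer, and the nearest genes by likeness. Alternatives covered the filter, pseudocount, scaling, variance trend, replicate block, depth class, GC content and left-out libraries. The values of 1 cell type marker are not reported here.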

Additional observations from a re-analysis of the deposited data

Results flagged for a closer look

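Of 118 groups of 4 libraries, 8 held a value far from the other 3 by Dixon's criterion, which chance meets in about 1 in 20 groups, or 5.9 here. No early-response member was among them. The depth of NA4 was 3887856 estimated reads, where NA1 to NA3 had 4909390 to 4916988, and NA3 had a mitochondrial share of 6.91% against 9.27% to 9.47%. The depth of NA4 was not unusual over both groups, since WT2 and WT3 had 3960939 and 3876907 estimated reads. Among list genes, Elk3 was at 605 normalised counts in WT3 against 442 to 455 in the other WT libraries, and Crtc1 at 177 in WT1 against 146 to 149. WT2 stood apart for Mef2a (404 against 334 to 337), Rxra (70.2 against 47.1 to 49), Rxrb (272 against 228 to 232) and Ppp2r5c (602 against 674 to 688).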

How the results depend on the processing

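Over 19 alternatives Egr1 and Ier2 stayed called, Nr4a1 and Ier3 stayed uncalled, and no member changed direction. Leaving out single libraries gave 1106 to 2141 called genes (lowest without NA4, 1294 without WT4), 3 to 5 called members and 20 to 34 called other immediate early genes, against 2053, 4 and 30. Without NA4 and WT4 these were 515, 2 and 13, and without the variance trend they were 1420, 2 and 14. With no filter, 15 of the 47 other immediate early genes were called, and 1574 of 17710 genes in all. Scaling by library totals called 2239 genes, 41.3% of them higher against 56.1%. Same-numbered libraries had deviation correlations of 0.087, 0.027, 0.013 and 0.16, and 2 of 4 pairs correlated best with their own number, so the numbers were not taken as pairs. With the replicate block 2004 genes, 5 members and 35 other immediate early genes were called, and Nr4a2 passed (1.91, limma adjusted p = 0.00991). The planned count test on recovered reads was not run because whole reads could not be recovered. Egr2 and Nr4a3 were too low for some alternatives. Directions turned for genes that were not called. As single libraries were left out, the log2 fold change ran from -0.029 to 0.18 for Elk3, -0.28 to 0.0013 for Mrtfa, -0.32 to 0.24 for Crem, -0.029 to 0.09 for Crtc3, -0.17 to 0.014 for Ep300, -0.06 to 0.085 for Mef2a, -0.11 to 0.011 for Mef2d, -0.067 to 0.22 for Hdac5, -0.74 to 0.092 for Hdac9, -0.04 to 0.017 for Ppp2ca and -0.057 to 0.07 for Ppp2r2a. It turned to -0.018 for Elk3, -0.023 for Crtc3 and -0.062 for Ppp2r2a with total scaling, to -0.072 for Elk3 and -0.033 for Ppp2r2a without NA4 and WT4, to 0.059 for Mrtfa, 0.06 for Mef2d and -0.13 for Ppp2r2a with the GC trend removed, and to 0.031 for Mef2a and 6.8e-05 for Ppp2ca with depth class. The cause of these changes was not tested. Depth limits Egr3, at 0 throughout, and Egr2 and Nr4a3, which held at most 57 and 107 estimated reads in an NA library and at most 10 in a WT library.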
